A study of Mus musculus with 3 samples.

Results

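OSOM-TAL_b is a cluster of loop of Henle (LOH) cells whose name places it in the thick ascending limb (TAL) of the outer stripe of the outer medulla (OSOM). Its members are the cells with this cluster name and the cell type LOH in the authors' per-cell annotation, 7891 cells of 181257 in all and of 71510 LOH cells. There were 652 of them in healthy controls, 3182 at day 28 and 4057 at day 84 after reversal of unilateral ureteric obstruction (R-UUO). The name is the authors' own. The tables hold no values of single genes, so that Slc12a1 and Umod, the defining markers of the thick limb, were not analysed here and the name was not checked against them.

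All mice were male BALB/c. In R-UUO a clamp on the left ureter was removed after several days, at an age of 12 to 13 weeks at surgery, and the right kidney was taken out 10 days later. The healthy controls carried neither the obstruction nor the nephrectomy, so that both are part of every comparison with them, and their age was not given in the sources used here. The renal medullas of 3 to 4 mice were pooled per sample, with 4 pools of controls, 4 at day 28 and 2 at day 84, and the pool is the replicate. Dissected medullas keep a varying amount of outer medulla, which is where this cluster is placed.

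The TAL carries tubular fluid upward from the medulla to the cortex. Its cells reabsorb salt through the cotransporter NKCC2, the product of Slc12a1, without letting water follow, and this separation of salt from water drives urine concentration. They also secrete uromodulin, the product of Umod, and they are among the tubule cells richest in mitochondria. The annotation divides the TAL into ISOM-TAL, of the inner stripe, and the outer stripe clusters OSOM-TAL_a and OSOM-TAL_b. Beside them, LOH holds the thin limb clusters ATL, DTL and IM-TL, and InjuredLOH.

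Each pool held between 13013 and 24338 cells, with a median of 751 to 3302 UMIs (unique molecular identifiers, which count captured RNA molecules) per cell, lowest in both day 84 pools. Control pool 1 has fractional UMI counts and the other 9 pools have whole numbers. No barcode occurred more than 1 time within a pool. Droplet barcodes were shared between pools of the same condition, which probe barcodes keep apart within a droplet, by 344 of the 652 control members, 1592 of the 3182 at day 28 and 950 of the 4057 at day 84. Cells outside the cluster shared them at similar rates: 54.0% to 61.1% in control pools, 47.1% to 49.7% at day 28, and 27.2% and 22.7% at day 84. In the pools that shared those droplets, the partner cells were themselves OSOM-TAL_b in 6 of 451, 86 of 2008 and 72 of 950 cases. Of all shared cells of the other pools, OSOM-TAL_b made up 0.338% to 1.05% in controls, 4.92% to 6.33% at day 28, and 10.9% and 6.82% at day 84. Only 10.5% to 13.3% of the members of a pool had a droplet barcode that occurred in another condition. Each condition thus appears to be a droplet run of its own, and run and condition cannot be told apart in any comparison that follows.

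OSOM-TAL_b cells were a small share of the LOH cells recovered from controls and a larger share at both times after R-UUO. They made up 0.520%, 4.24%, 0.874% and 1.26% of LOH cells in control pools 1 to 4, from 38, 463, 53 and 98 cells. At day 28 the shares were 20.3%, 18.2%, 9.59% and 10.1% in pools 1 to 4, and at day 84 they were 18.4% and 28.7%. Every pool after R-UUO lay above every control pool, and control pool 2 stood above the other 3 controls. Such a lack of overlap with the controls, in either direction, was seen in 6 of 7 LOH clusters (85.7%) at day 28 and 5 of 7 (71.4%) at day 84. Counting error was small beside the spread between pools: the Wilson 95% interval was 0.379% to 0.712% in control pool 1, the pool with the fewest members, and 27.8% to 29.6% in day 84 pool 2, the pool with the most (counting error only).

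Averaged over pools, the members were 1.72% ± 1.70 (SD, n = 4) of LOH cells in controls. The mean was 14.5% ± 5.50 (SD, n = 4) after 28 days, against 23.5% ± 7.31 (SD, n = 2) after 84 days. On the scale of log2 odds, the logarithm of members over the other LOH cells, the rise by day 28 was 3.65 ± 0.625 (SE, limma adjusted p = 5.14e-04), or 12.6-fold in odds. By day 84 it was 4.56 ± 0.765 (SE, limma adjusted p = 7.37e-04), or 23.5-fold. The background of such changes was high, since the same shares of the LOH clusters, 85.7% and 71.4%, were called in either direction. In the upward direction, 3 of 7 (42.9%) were called at day 28 and 2 of 7 (28.6%) at day 84, with the larger rise in InjuredLOH, of 6.62 and 5.69. The exact two-sided permutation test gave p = 0.0286 at day 28, the smallest possible with 4 pools against 4, and p = 0.133 at day 84, the smallest possible with 2 against 4.

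**Figure D1:**
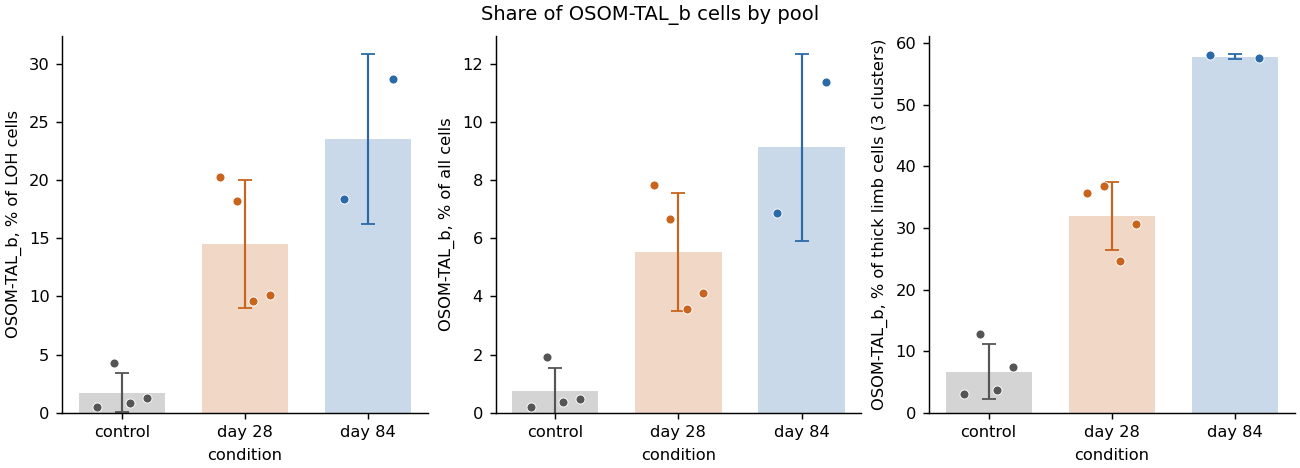
OSOM-TAL_b cells in percent of LOH cells (left), of all cells (middle) and of the cells of the 3 thick limb clusters (right), by condition. Points are pools, bars their mean and error bars the SD (n = 4, 4 and 2 pools). All 6 pools after R-UUO lie above all 4 control pools in each panel, and in the right panel the day 84 pools (58.1% and 57.5%) lie above all day 28 pools (24.7% to 36.9%).

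Counted among all cells of the pool, the cluster averaged 0.737% ± 0.786 (SD, n = 4) in controls. Its mean was 5.54% ± 2.03 (SD, n = 4) after 28 days, against 9.12% ± 3.20 (SD, n = 2) after 84 days. The control pools held 0.194%, 1.90%, 0.368% and 0.482%, the day 28 pools 7.82%, 6.66%, 3.57% and 4.12%, and the day 84 pools 6.86% and 11.4%. By number of cells, its rank among the 25 clusters was 16 to 19 in the control pools. It was 4 to 9 after 28 days, with ranks 6 and 1 in the day 84 pools. In day 84 pool 2, with 2702 cells, it was the most numerous of the 25 clusters. In log2 odds the rise by day 28 was 3.44 ± 0.652 (SE, limma adjusted p = 0.00138). By day 84 it was 4.24 ± 0.798 (SE, limma adjusted p = 0.00262). Over the 25 clusters, 22 (88%) were called at day 28 and 12 (48%) at day 84, of which 13 (52%) and 9 (36%) rose, and the pools of 18 (72%) and 17 (68%) did not overlap with the controls. The median change over all 25 clusters was 0.56 and 0.13, so that the rise of OSOM-TAL_b was well above that of the median cluster at both times.

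Whether day 84 differed from day 28 depended on the denominator and on depth. In log2 odds the difference was 0.90 ± 0.765 (SE, limma adjusted p = 0.325) among LOH cells. Among all cells it was 0.80 ± 0.798 (SE, limma adjusted p = 0.448), and day 84 pool 1, at 18.4% of LOH cells, lay within the range of the day 28 pools. In this comparison 2 of 7 LOH clusters (28.6%) and 2 of 25 clusters (8%) were called. Among thick limb cells alone, day 84 was higher by 1.56 (limma adjusted p = 0.0121, over the 3 thick limb clusters), and its pools lay above those of day 28. OSOM-TAL_a itself changed by -1.09 among LOH cells (limma adjusted p = 0.0124), so that the denominator moved as well. Its pools did not overlap between the time points, as in 2 of 7 LOH clusters (28.6%). The log2 ratio of members to OSOM-TAL_a was higher by 1.66 and was not called (limma adjusted p = 0.629). With only cells of at least 1000 UMIs kept, the difference among LOH cells was -1.97 (limma adjusted p = 0.149).

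The members held little of the pools' RNA for their number. They accounted for 0.104% to 0.633% of all UMIs in controls. After R-UUO this was 1.48% to 3.81% in the day 28 pools, and 3.02% and 5.43% in those of day 84, in each pool less than their share of the cells.

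Among the 3 thick limb clusters the balance moved toward OSOM-TAL_b. It was 2.96%, 12.7%, 3.72% and 7.38% of thick limb cells in control pools 1 to 4, with 35.7%, 36.9%, 24.7% and 30.6% in the day 28 pools and 58.1% and 57.5% in those of day 84. The neighbouring cluster OSOM-TAL_a, of the same stripe by name, rose less: its log2 odds among LOH cells rose by 1.02 ± 0.203 (SE, limma adjusted p = 8.3e-04) by day 28. By day 84 the change was -0.07 ± 0.249 (SE, limma adjusted p = 0.787). ISOM-TAL, whose cells line the inner stripe, had changes of -0.13 and -0.72, neither of them called (limma adjusted p = 0.804 and 0.323). There were 0.0526, 0.313, 0.0646 and 0.126 OSOM-TAL_b cells for each OSOM-TAL_a cell in control pools 1 to 4. The day 28 pools had 0.888, 0.864, 0.453 and 0.528, and the day 84 pools 1.93 and 2.21. Over cells of all depths, the 3 conditions did not overlap in this ratio. The separation was not kept within a fixed range of UMIs. At 1000 to 2000 UMIs, the day 84 pools held 146 and 57 members beside 320 and 412 OSOM-TAL_a cells. The day 28 pools held 206, 470, 334 and 353 beside 11, 189, 305 and 436, and control pool 2 held 309 beside 1065. At 500 to 1000 UMIs, control pool 2 held 77 beside 15, and the day 84 pools 1092 and 1978 beside 366 and 785. Of all 24 ratios described next, 17 (70.8%) did not overlap between day 28 and controls, 15 (62.5%) between day 84 and controls, and 5 (20.8%) between the time points.

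Ratios to each of the other 24 clusters show against which populations the number of OSOM-TAL_b cells moved. All 24 share the spread of OSOM-TAL_b itself, so they are not independent of each other, and limma gave them one common standard error of 0.849 at day 28 and 1.04 at day 84. Pooling dependent ratios in this way makes their limma p-values too small, so the calls below are descriptions. At day 28, 20 of the 24 (83.3%) were called, 16 upward (66.7%) and 4 downward (16.7%). At day 84, 16 were called (66.7%), all upward. Relative to OSOM-TAL_a the members rose by 2.59 (limma adjusted p = 0.00391) and 4.25 (limma adjusted p = 1.46e-04) on the log2 scale, and relative to ISOM-TAL by 3.57 (limma adjusted p = 9.08e-05) and 4.85 (limma adjusted p = 2.1e-05).

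The 4 downward ratios at day 28 were to populations that rose more. These were InjuredLOH (-2.76, limma adjusted p = 0.00236) and InjuredCD (-2.07, limma adjusted p = 0.0199), the injured cells of the loop and of the collecting duct, and the proximal tubule clusters PT-S1S2 (-2.54, limma adjusted p = 0.00445) and PT-S2 (-1.83, limma adjusted p = 0.0386). The exact permutation test gave p = 0.0286 for both injured clusters, and p = 0.0857 and 0.171 for PT-S1S2 and PT-S2. At day 84 none of these 4 was called with limma, with changes of -1.21, -1.91, 0.29 and 1.61. Between day 84 and day 28, limma called 1 of 24 ratios (4.17%), to PT-S2, by 3.45 (limma adjusted p = 0.0269). The exact permutation test gave p = 0.133 for it, the smallest possible with 2 pools against 4.

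**Figure D2:**
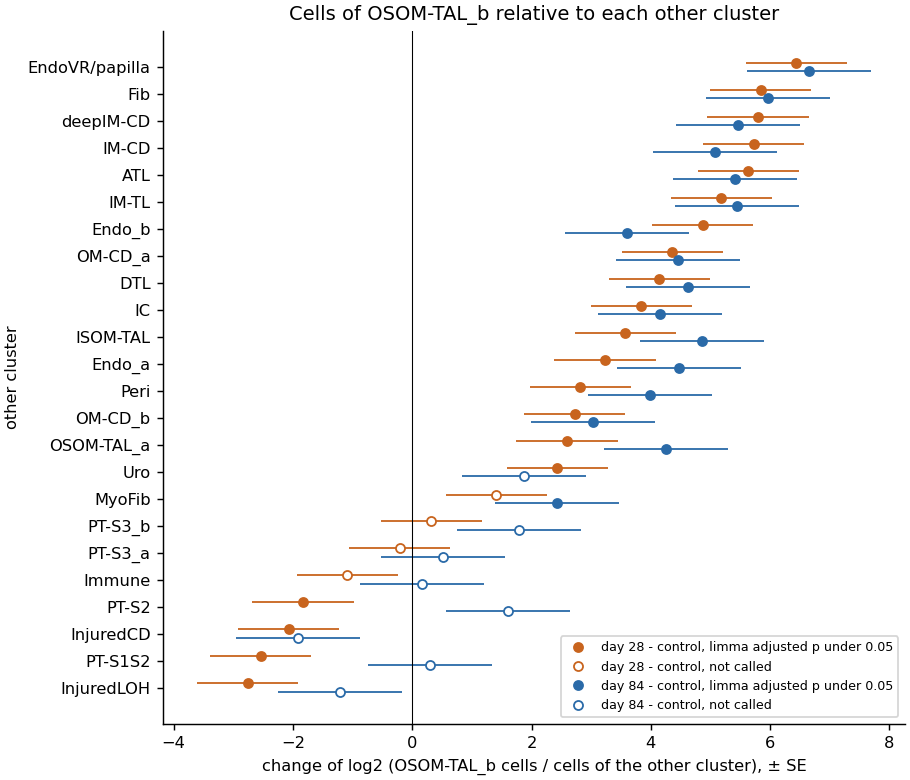
Change from control in the log2 ratio of OSOM-TAL_b cells to the cells of each other cluster at day 28 (orange) and day 84 (blue), with standard errors. Filled points pass a limma adjusted p of 0.05. The members rose against 16 clusters at each time, and at day 28 fell against InjuredLOH, PT-S1S2, InjuredCD and PT-S2.

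The proximal tubule, whose straight segment runs through the outer stripe, was also more numerous after R-UUO in most pools. There were 85, 734, 161 and 23 proximal tubule cells of all segments in control pools 1 to 4, or 0.113% to 3.02% of the cells. The day 28 pools held 2965, 2969, 2145 and 459, or 2.95% to 22.8%, and the day 84 pools 712 and 1812. There were 0.447, 0.631, 0.329 and 4.26 OSOM-TAL_b cells per proximal tubule cell in the controls, 0.343, 0.314, 0.275 and 1.40 at day 28, and 1.90 and 1.49 at day 84, and these ranges overlap. Control pool 2, with the most proximal tubule cells among the controls, also had the most OSOM-TAL_b cells, whereas day 28 pool 4, with the fewest at its time, held 4.12% OSOM-TAL_b cells against 3.57% in pool 3. The part that the amount of outer stripe in each dissection has in the rise was not tested.

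OSOM-TAL_b cells had fewer UMIs and fewer detected genes than the median of the other cells in every pool. Among the 25 clusters, counted from the lowest, their rank was 3 to 9 in median UMIs and 3 to 11 in median detected genes, so that other clusters were lower in each pool. These are descriptions, since the clusters were drawn from the same cells' expression. The median UMI count of the members was 972, 1290, 858 and 996 in control pools 1 to 4, 2556, 1521, 1208 and 1319 at day 28, and 681 and 584 at day 84. It was below the median of all other cells in 10 of 10 pools, at 0.731 to 0.853 times that median in controls. The factor was 0.637 to 0.833 in the day 28 pools, and 0.716 and 0.720 in those of day 84. It was also the lowest of the 3 thick limb clusters in every pool. Against OSOM-TAL_a the ratio of the medians lay between 0.505 and 0.762, and against ISOM-TAL, whose cells had the most UMIs of the 3, between 0.197 and 0.413.

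Detected genes followed the UMIs. Medians were 697 to 969 genes per member in controls, 903 to 1671 at day 28, and 578 and 485 at day 84. Cells with more than 2 times the pool's median UMI count were few in the cluster, at most 7.89% of the members of a control pool and at most 0.935% after R-UUO, against 15.7% to 24.3% of the other cells. They were also few in OSOM-TAL_a, at 4.39% to 9.82% in controls, 5.15% to 15.1% at day 28, and 2.43% and 4.58% at day 84, and in control pool 1 both clusters were near each other (7.89% and 9.82%). In day 84 pool 2 the deepest of 2702 members had 2586 UMIs, while ISOM-TAL cells of that pool reached 26952.

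**Figure D3:**
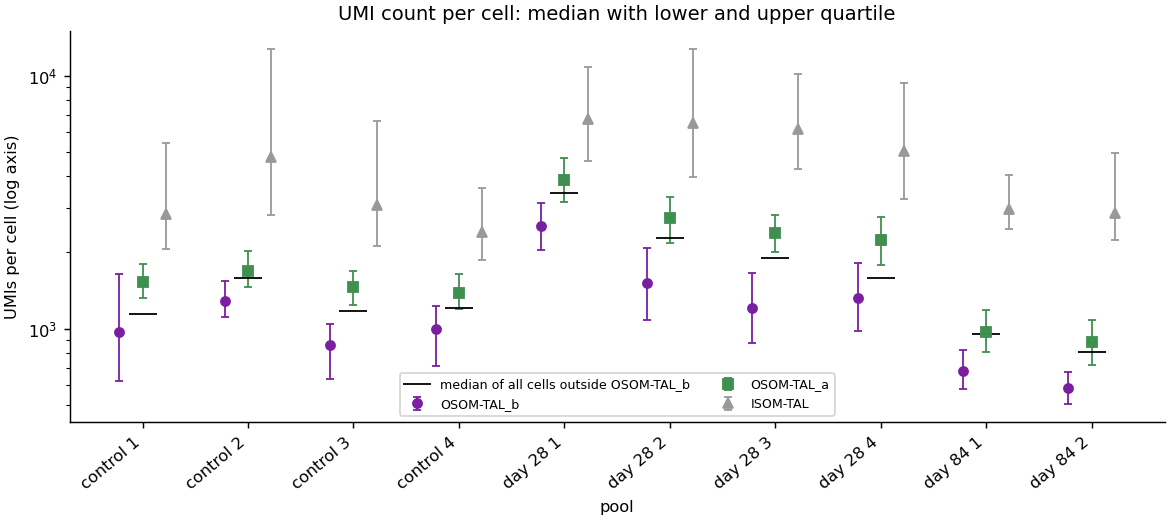
UMIs per cell (log axis) in OSOM-TAL_b, OSOM-TAL_a and ISOM-TAL by pool. Points are medians and bars run from the lower to the upper quartile of the cells, and black dashes mark the median of all cells outside OSOM-TAL_b. OSOM-TAL_b is the lowest of the 3 clusters in each pool and below the dash in all 10.

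Between conditions, the depth of the members moved with that of the whole pool. The log2 median UMI count differed from controls by 0.63 ± 0.274 (SE, limma adjusted p = 0.06) at day 28, where 9 of 25 clusters (36%) were called. The day 84 difference was -0.69 ± 0.335 (SE, limma adjusted p = 0.0897), where 8 of 25 (32%) were called, although both day 84 pools lay below all controls, as in 20 of 25 clusters (80%). Day 84 lay below day 28 by 1.32 (limma adjusted p = 0.00141), as did all 25 clusters (100%). Without control pool 2, day 28 pool 3 or day 28 pool 4, the day 28 change passed (0.72 to 0.76, limma adjusted p from 0.0257 to 0.039), and without day 28 pool 1 the day 84 change did (limma adjusted p = 0.0129). Detected genes differed by 0.48 at day 28 (limma adjusted p = 0.0658), where 8 of 25 clusters (32%) passed, and when each of those 3 pools was left out in turn the difference passed (limma adjusted p from 0.0373 to 0.0489). By day 84 they fell by 0.62 ± 0.258 (SE, limma adjusted p = 0.043), with no overlap with the controls, as in 21 of 25 clusters (84%), a change that was also the median over the 25 clusters, of which 14 (56%) passed. That call was lost in 6 of 10 fits that each left out a pool, namely control pool 1, 2 or 4, day 28 pool 2, or either day 84 pool (limma adjusted p from 0.0567 to 0.326).

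Set against the other cells of the same pool, the members' log2 depth differed from controls by -0.17 ± 0.101 (SE, limma adjusted p = 0.186) at day 28. The day 84 difference was -0.16 ± 0.124 (SE, limma adjusted p = 0.344), without overlap between the pools, as in 13 of 25 clusters (52%). In this measure 11 of 25 clusters (44%) and 5 of 25 (20%) were called. Relative to the other LOH cells alone, the day 28 change was -0.42 and was called (limma adjusted p = 0.00309, over the 7 LOH clusters). With means of log2 values in place of medians, and all other cells of the pool, it was 0.01 (limma adjusted p = 0.912).

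After R-UUO few members were among the LOH cells with the most UMIs, while the control pools varied. The LOH cells of each pool were divided into quintiles by UMI count, from the fewest UMIs to the most. In controls, OSOM-TAL_b was 2.50% ± 1.64 (SD, n = 4) of the lowest quintile and 0.477% ± 0.371 (SD, n = 4) of the highest. At day 28 it was 29.4% ± 9.76 (SD, n = 4) of the lowest and 0.417% ± 0.327 (SD, n = 4) of the highest, and at day 84 42.3% ± 12.5 (SD, n = 2) and 1.19% ± 1.02 (SD, n = 2). Of the members themselves, 35.3% to 50.1% lay in the lowest quintile at day 28 and 36.5% and 35.7% at day 84, and at most 1.33% in the highest in any of these 6 pools. In control pools 1 to 4, 39.5%, 22.9%, 47.2% and 32.7% lay in the lowest and 21.1%, 2.16%, 0% and 14.3% in the highest. In control pool 1 the members' share of the highest quintile (0.547%, from 8 cells) was close to their share of all LOH cells (0.520%).

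**Figure D4:**
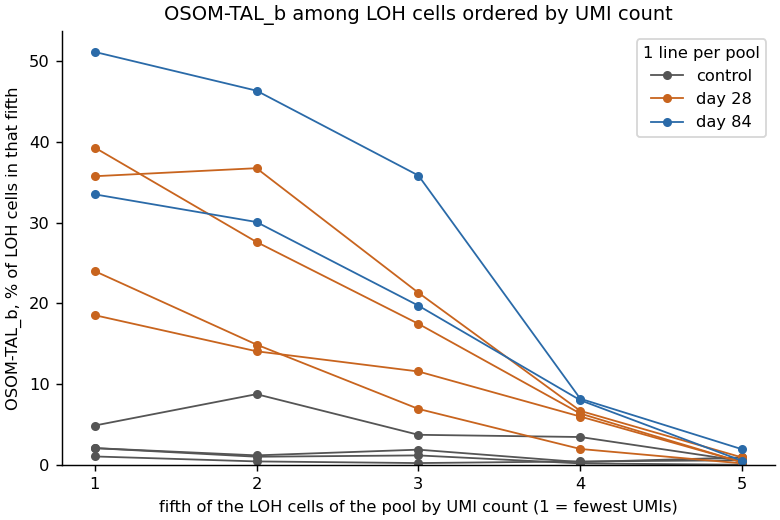
OSOM-TAL_b in percent of the LOH cells in each quintile of UMI count within a pool (1, fewest UMIs). Each line is a pool. The day 84 lines start at 33.5% and 51.2%, those of day 28 between 18.5% and 39.3% and those of the controls between 1.03% and 4.85%, and all end at 1.91% or less.

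A fixed depth limit therefore bears on the day 84 result. With only cells of at least 1000 UMIs kept, 11.1% and 2.18% of the members of the 2 day 84 pools remained, against 32.1% to 83.2% in controls and 66.7% to 97.4% at day 28. The share of LOH cells was then 0.370% to 4.07% in controls, 7.38% to 20.5% at day 28, and 4.79% and 2.39% at day 84. In log2 odds the day 28 rise was still called, at 3.88 (limma adjusted p = 0.00116), and the day 84 rise was 1.91 and was not (limma adjusted p = 0.0995). With the limit set in each pool at its own median UMI count, chosen after the data were seen, both rises were called, at 3.12 (limma adjusted p = 0.00113) and 3.51 (limma adjusted p = 0.00274), and the shares were 0.203% to 1.96% in controls, 2.54% to 7.40% at day 28, and 6.21% and 7.44% at day 84.

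In deposited mitochondrial UMIs, OSOM-TAL_b cells went from a low level in controls to nearly none after R-UUO. The mean mitochondrial percentage of the members was 1.11%, 1.47%, 0.943% and 0.861% in control pools 1 to 4, 0.0299%, 0.00874%, 0.00326% and 0.0033% at day 28, and 0.0213% and 0% at day 84. Members with no mitochondrial UMI were 0, 0, 0 and 1 cells in the 4 control pools, or at most 1.02%. They were 75.4%, 91.9%, 97.3% and 97.4% of the members at day 28, and 88.7% and 100% at day 84. In UMIs, control pool 2 had 9995 mitochondrial UMIs among 672502 of its members, and day 28 pool 4 had 26 among 921616. Day 84 pool 2 had 0 among 1632910, which by counting error alone allows up to 3 UMIs in that total. The authors corrected their data for ambient RNA, and whether this removed mitochondrial UMIs was not tested, so these values are no bound on the cells' own RNA.

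The fall was common to nearly all clusters. On the scale of log2(mean percentage + 0.05) it was -4.22 ± 0.494 (SE, limma adjusted p = 4.22e-08) by day 28. By day 84 it was -4.24 ± 0.605 (SE, limma adjusted p = 1.07e-06), while 23 of 25 clusters (92%) fell past the threshold at day 28 and 24 of 25 (96%) at day 84, with median changes of -3.51 and -4.09 over all clusters, and in all 25 clusters (100%) the pools did not overlap with the controls at either time. The exact permutation test gave p = 0.0286 for the members at day 28 and p = 0.133 at day 84, each the smallest possible. The limma fit draws on the spread of all 25 clusters, which come from the same pools. The added 0.05 understates a fall to values this low. The members had the lowest or next to lowest mean percentage of the 25 clusters in all 6 pools after R-UUO, and ranks from 2 to 13 in the controls. Low values were not particular to them. OSOM-TAL_a had 0.106%, 0.0284%, 0.00594% and 0.00124% in day 28 pools 1 to 4, the last below the members. In the day 84 pools OSOM-TAL_a had 0.0247% and 0.00127%.

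The OSOM-TAL_a cells fell as well, to a change of -4.05 by day 28 (limma adjusted p = 1.03e-07) and of -4.36 by day 84 (limma adjusted p = 1.39e-06). ISOM-TAL cells, which had more UMIs, had mean percentages of 4.16% to 5.31% in controls, 1.79% to 3.76% at day 28, and 2.60% and 3.23% at day 84. Its pools after R-UUO all lay below its control pools, but the changes of -0.91 and -0.72 were not called (limma adjusted p = 0.078 and 0.25). The difference between these changes was not tested.

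**Figure D5:**
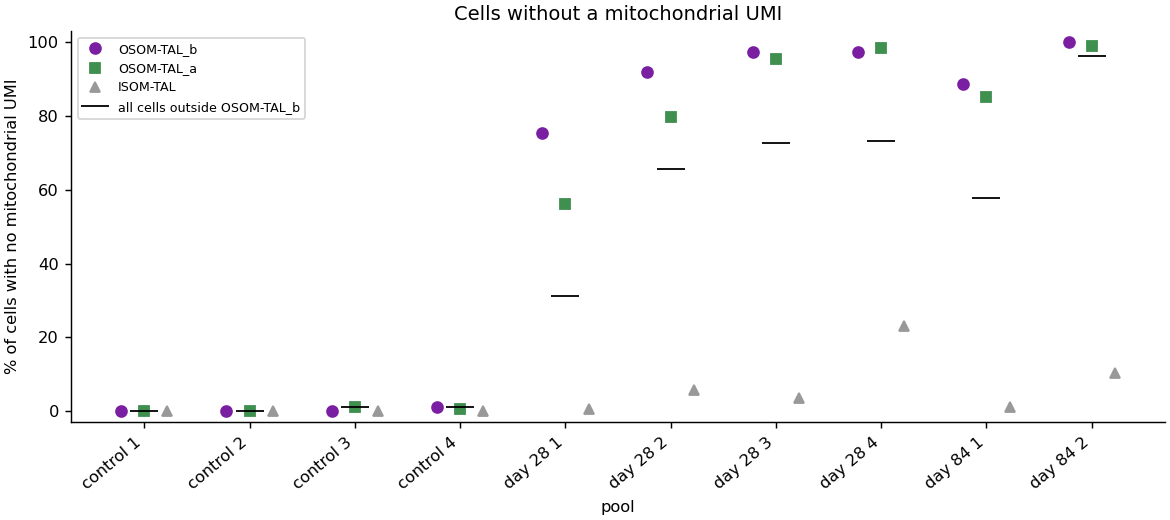
Cells with no mitochondrial UMI, in percent of the cells of OSOM-TAL_b, OSOM-TAL_a and ISOM-TAL and of all cells outside OSOM-TAL_b (black dashes), by pool. Control pools lie at 0% to 1.22%. After R-UUO the outer stripe clusters lie between 56.2% and 100%, and ISOM-TAL between 0.581% and 23.1%.

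At matched depth, cells with no mitochondrial UMI were frequent after R-UUO in the members and in other cells alike. Most day 84 members had 500 to 1000 UMIs (1092 and 1978 cells). Of the members in that range, 0% had no mitochondrial UMI in each control pool, 56.0% to 96.6% at day 28, and 90.8% and 100% at day 84. All cells outside the cluster had 0.0474% to 2.10%, 16.9% to 81.7%, and 69.4% and 99.5% in the same range. In every pool after R-UUO the members' share lay above that of these other cells, though by little in day 84 pool 2. For ISOM-TAL, only pools with at least 10 such cells are given: 0% in 3 control pools, 60.0% and 91.7% in day 28 pools 2 and 3, and 71.4% in day 84 pool 2, from 12 to 21 cells each. The mean mitochondrial percentage of these ISOM-TAL cells was 2.87% to 5.01% in controls, 0.306% and 0.0149% at day 28, and 0.149% at day 84.

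Among members of 1000 to 2000 UMIs, 0% to 2.56% had no mitochondrial UMI in the control pools (11 to 309 cells), 66.0% to 98.2% at day 28 (206 to 470 cells), and 75.3% and 100% at day 84 (146 and 57 cells). OSOM-TAL_a cells of that range had 0% to 1.45%, 36.4% to 99.1%, and 84.7% and 99.5%, and all cells outside OSOM-TAL_b 0.00969% to 1.14%, 28.1% to 85.9%, and 52.7% and 97.6%. ISOM-TAL cells had 0% in controls, 5.56% to 15.8% at day 28 in the 3 pools with at least 10 such cells, and 3.23% and 25.6% at day 84. Their mean percentage in that range was 3.93% to 4.91% in controls, 0.662% to 2.23% at day 28, and 0.986% and 0.845% at day 84, so that ISOM-TAL was lower after R-UUO in both ranges. Detected genes of members of 1000 to 2000 UMIs had medians of 893 to 1081 in controls, 1011 to 1238 at day 28, and 959 and 955 at day 84, where the members' own median UMIs in that range were 1141 to 1394, 1384 to 1720, and 1210 and 1212.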

How the data were processed

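Renal medullas were dissociated as fixed single cells and hybridized with probes (10x Genomics Flex). Per the labels, counts were made with Cell Ranger 7.1 and mm10 was the build. The authors excluded cells with under 300 detected genes or over 10% mitochondrial reads, corrected for ambient RNA (SoupX), dropped doublets called by scDblFinder or showing signatures of several cell types, and used Seurat for integration and clustering. The deposited values per cell are a UMI count (expected counts in the controls, fractional in control pool 1), a count of detected genes and a mitochondrial percent. In the 9 other pools this percent times the UMI count gave whole numbers (within 0.01) in 100% of cells, so it was made from the deposited counts.

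Cells of each cluster were counted per pool. Log2 odds, with 0.5 cells added to both parts, log2 ratios of cell numbers, log2 medians of UMIs and genes and log2(mean mitochondrial percent + 0.05) were fitted with limma 3.58.1 (R 4.3.3), 3 conditions in one fit, two-sided, with Benjamini-Hochberg adjustment over the 7 LOH clusters, the 25 clusters or the 24 ratios, at 0.05. For shares and ratios, the deposited numbers of cells, and not reads, were tested. The share fit alone was run on simulated cell numbers, with the same spread between pools for every cluster. That simulation does not cover the other measures or the wide spread of OSOM-TAL_b among the controls. Exact permutation tests compared pool means (scipy 1.17.1). Median values of clusters with few cells in a pool are imprecise. Alternatives were other cell filters, denominators and added constants, edgeR 4.0.16 on cell numbers, and leaving out each pool. An alternative restricted to fewer clusters was adjusted over those clusters alone, such as the 3 thick limb clusters. Clusters named with values are OSOM-TAL_b, the thick limb clusters, InjuredLOH, proximal tubule cells, and those whose ratio went against the majority. The cluster, comparisons and lists were chosen with earlier results of these data known.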

Additional observations from a re-analysis of the deposited data

Results flagged for a closer look

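Control pool 2 held OSOM-TAL_b at 1.90% of all cells, far from the other 3 control pools at 0.194% to 0.482%. The gap to the nearest was 0.831 of the range of the 4 pools. Control pool 4 held the only member with no mitochondrial UMI among the controls, 1 of 98 cells or 1.02%, against 0% in the other 3. Of 16 groups of 4 pools examined in this way, 2 held such a pool, where chance gives about 0.8 for values without ties. The groups are overlapping measures of the same pools. With 3 pools at 0% any other value is flagged, so that the flag for control pool 4 rests on 1 cell.

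The time points differed from each other in the depth of the members, by -1.32 in log2 median UMI count (limma adjusted p = 0.00141) and by -1.10 in log2 median detected genes (limma adjusted p = 0.00117), day 84 against day 28. All 25 clusters were called lower in UMI count and 24 of 25 in detected genes. The exact permutation test gave p = 0.133 for the members in both measures, the smallest possible with 2 pools against 4. Run and time cannot be told apart here.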

How the results depend on the processing

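Of 244 recomputed values for 16 results, 222 kept their direction and their side of the threshold. The rise at day 28 did so in all 20 alternatives with LOH cells (2.93 to 4.25) and in all 20 with all cells as denominator (2.90 to 4.08), and the rise at day 84 in 19 of 20 of each. With at least 1000 UMIs per cell, the day 84 rise was 1.91 (limma adjusted p = 0.0995) and 1.60 (limma adjusted p = 0.167), and day 84 against day 28 turned to -1.97 and -2.18. Among thick limb cells only, day 84 exceeded day 28 by 1.56 (limma adjusted p = 0.0121), while OSOM-TAL_a changed by -1.09 among LOH cells. The members' UMI count relative to other cells changed by -0.31 at day 28 and -0.39 at day 84 when only cells with at least 500 genes and at most 5% mitochondrial RNA were kept (limma adjusted p = 0.0217 and 0.0304), and at day 28 by -0.42 relative to other LOH cells and by 0.013 with means of log2 values. Leaving out each pool moved the median UMI change between 0.40 and 0.76 at day 28 and between -0.80 and -0.58 at day 84, and that of detected genes between 0.30 and 0.59 and between -0.75 and -0.50. Where a day 84 pool was left out, the remaining one was assumed to vary like the other pools. The number of ratios called upward ranged from 16 to 17 at day 28 and from 13 to 18 at day 84. The causes were not tested. No paired analysis was possible because pools of different conditions share a number but no animals, litter or day in the labels. With 2 pools at day 84, the number of pools and the low depth limit what can be shown there.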
